A study of Mus musculus with 9 samples.

Results

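The acute phase genes described here are Lbp, Lcn2, Saa1, Saa2, Saa3, Lrg1, Hp, C3, Serpina3n and Cfb, measured in gastric tumours of mice. They were chosen by name: every probe on the array whose target name equalled one of these 10 symbols was taken, which gave 13 of 45281 probes. The array writes the names in capitals (LBP, LCN2, SAA1, SAA2, SAA3, LRG1, HP, C3, SERPINA3N and CFB). Of these, 10 probes were detected on at least 3 arrays, and they covered 8 of the 10 genes, out of 13001 genes tested. Saa1 (with 2 probes) and Saa2 (with 1) were not detected often enough to be tested. All 9 mice carried the homozygous gp130Y575F/F genotype on a mixed 129/BL6 background and were 6 to 8 weeks old. The 3 groups, with 3 mice each, received 200 µl of PBS, or 5 µg of IL6 or of IL11 in the same volume, by intraperitoneal injection. Tumours were resected 60 min later and each gave 1 array (Illumina MouseWG-6 version 2.0). The series' design text calls the injected proteins recombinant human cytokines. No group carried wild-type gp130, so the comparisons are between injections within mutant tumours.

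The acute phase response is a change in secreted proteins that follows infection or injury. It is best known in the liver, where IL6 acts through its receptor and the shared subunit gp130 to activate the transcription factor STAT3, together with C/EBP and NF-kB factors. Epithelia of the gut also express several of these genes. Lbp encodes the protein that carries bacterial lipopolysaccharide to CD14 and the TLR4 receptor. Serpina3n encodes a serine protease inhibitor and Lrg1 a leucine-rich glycoprotein. C3 and Cfb encode the central complement protein and factor B of the alternative complement pathway. Saa1, Saa2 and Saa3 encode serum amyloid A proteins, Hp encodes haptoglobin, which binds free haemoglobin, and Lcn2 encodes lipocalin 2, which binds bacterial siderophores.

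Promoter sequence was at hand for 7 of the 10 genes, as RefSeq sequences of mouse build GRCm38.p6. The 3 below are shown because Serpina3n and Lrg1 were the members whose levels over the arrays lay nearest to those of Lbp, while Lcn2 varied widely between tumours of a group. Each window was the 250 bases before the transcript start of the RefSeq table, on the strand of the gene. Serpina3n is on the plus strand at chr12:104406458-104406645, Lrg1 on the minus strand at chr17:56121947-56122196 and Lcn2 on the minus strand at chr2:32387740-32387989. The last 62 bases of the Serpina3n window lie inside the annotated span of that gene and are not printed. Capitals mark matches to a C/EBP motif (TTNNGNAA, where N is any base) or to an NF-kB motif, which reads GGG, any 2 bases, then TTTCC. A STAT motif (TTCNNNGAA) was searched as well, all on both strands, and no match of different motifs overlapped.
Serpina3n: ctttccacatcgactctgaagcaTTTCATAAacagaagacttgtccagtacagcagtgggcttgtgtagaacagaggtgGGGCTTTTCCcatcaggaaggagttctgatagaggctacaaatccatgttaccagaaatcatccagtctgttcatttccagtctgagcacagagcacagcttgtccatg
Lrg1: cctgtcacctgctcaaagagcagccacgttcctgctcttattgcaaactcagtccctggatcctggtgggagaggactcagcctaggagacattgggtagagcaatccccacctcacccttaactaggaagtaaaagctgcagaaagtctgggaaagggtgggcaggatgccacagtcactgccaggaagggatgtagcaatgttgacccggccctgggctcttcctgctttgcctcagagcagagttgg
Lcn2: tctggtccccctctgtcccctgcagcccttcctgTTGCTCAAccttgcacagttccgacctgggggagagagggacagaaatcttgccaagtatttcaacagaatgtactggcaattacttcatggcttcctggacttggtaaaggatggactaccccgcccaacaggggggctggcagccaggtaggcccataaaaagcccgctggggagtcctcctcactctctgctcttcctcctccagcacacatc
The printed Serpina3n bases held 1 C/EBP match and 1 NF-kB match, the latter from base -171 to base -162. The Lcn2 window held 1 C/EBP match and the Lrg1 window none of the 3 motifs. Over the full windows of the 7 members, 6 held the C/EBP motif, 1 the NF-kB motif and 0 the STAT motif. Among 32851 promoters of the same length these shares were 36.8%, 1.41% and 7.02%. All 250 bases of the Saa3 window and 201 of the Saa1 window lie inside the annotated span of the gene. The Saa1 and Saa2 windows are close copies of each other. The members' windows are therefore neither all upstream nor independent, which limits the comparison with all promoters. A match is a run of letters and was not tested as a binding site. Lbp itself lies at chr2:158306493-158332852 in the same build.

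The mean signal of an array before normalization ranged from 300.1 to 418.7 in the PBS group and from 398.3 to 651.6 with cytokine, so levels are given after background correction and quantile normalization, on a log2 scale. PBS replicates 2 and 3 stood apart from the other arrays on the first principal component, at 73.5 and 37.8 against -22.5 to -6.21. PBS replicate 2 had the highest mean of T and B cell markers (8.00, against 4.83 to 5.81 on the others, over 2 of 8 genes tested) and of pancreatic acinar markers (9.32, against 7.25 to 8.20, over 3 of 9). PBS replicate 3 had the highest mean of squamous forestomach markers (9.50, against 6.89 to 8.23, over 5 of 10). Gastric epithelial markers averaged 11.73 to 12.51 over 11 tested genes (the stomach genes Gkn1, Gkn2, Gkn3 and Tff2 among them), and 9 of these were detected on every array. In tumour RNA, fewer cells of a type and less RNA per cell cannot be told apart. Because these PBS arrays stood apart, the members' differences from PBS are also given without them, which leaves 1 PBS tumour.

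**Figure D1:**
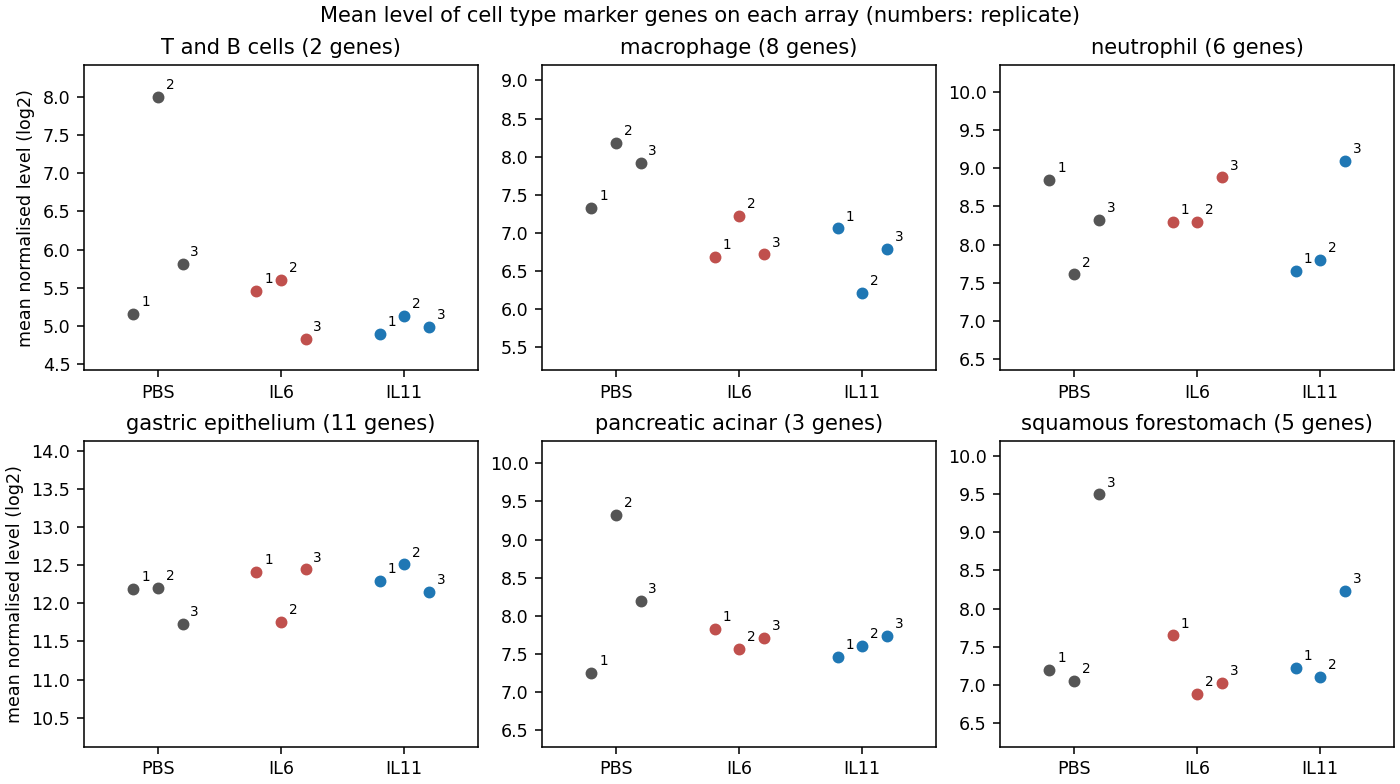
Mean normalised level (log2) of marker genes of 6 cell types or regions on each array, as points labelled by replicate number, with the number of tested genes in each title. T and B cell and pancreatic acinar markers are highest on PBS replicate 2, at 8.00 and 9.32, and squamous forestomach markers on PBS replicate 3, at 9.50.

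The comparison of each cytokine with PBS asked which of these genes respond in the tumour within 60 min. Lbp was higher in every cytokine-treated tumour than in every PBS tumour. Its level was 7.87, 7.87 and 7.68 with PBS, 9.40, 8.47 and 9.22 with IL6, and 9.48, 9.43 and 9.96 with IL11, for replicates 1, 2 and 3. The PBS tumours were nearly level for this gene (7.81 ± 0.11, SD, n = 3), whereas IL6 replicate 2 was low among the IL6 tumours. Raw signal of the probe ran from 192.0 to 265.7 with PBS, 596.9 to 993.0 with IL6 and 701.3 to 1079.3 with IL11.

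With IL11, Lbp rose 3.52-fold (95% confidence interval 2.35 to 5.26), a log2 change of 1.81 ± 0.26 (SE, n = 3), with a limma adjusted p of 0.0414. It was the 1 member of 8 that passed the threshold of 0.05 with IL11, where 0.131% of all genes passed and 0.108% passed by rising. With IL6, Lbp lay 2.33-fold (1.56 to 3.48) above PBS, with a log2 difference of 1.22 ± 0.26 (SE, n = 3), and did not pass (limma adjusted p = 0.140). With IL6, 0 of the 8 members passed, where 0.277% of all genes did and 0.238% rose. The change with IL11 had the 15th smallest p of all genes, and that with IL6 the 90th.

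The Lbp call with IL11 rested on single arrays. It held in 2 of 9 models that left out 1 array, without PBS replicate 1 (adjusted p = 0.0279) and without IL6 replicate 2 (0.0373). It was lost without PBS replicate 2 (0.105), PBS replicate 3 (0.0812), IL6 replicate 1 (0.0838), IL6 replicate 3 (0.0942), IL11 replicate 1 (0.162), IL11 replicate 2 (0.220) or IL11 replicate 3 (0.211). The log2 change itself stayed between 1.65 and 1.91 in these models. Without both PBS arrays that stood apart it was 1.75 (adjusted p = 0.260) with IL11 and 1.16 (adjusted p = 0.433) with IL6. An exact two-sided permutation test of 3 against 3 arrays cannot go below p = 0.10, which Lbp reached in all 3 comparisons.

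**Figure D2:**
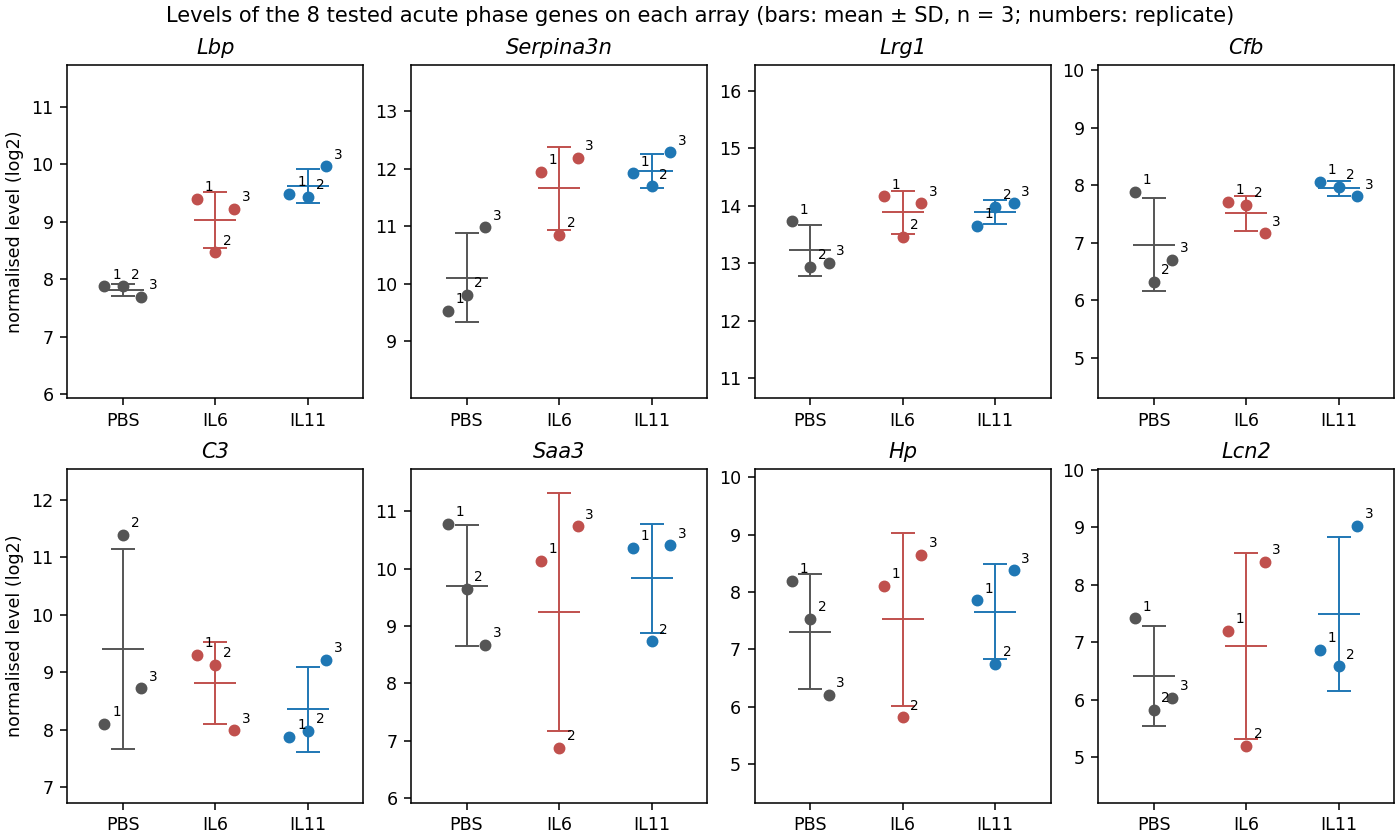
Normalised level (log2) of the 8 tested acute phase genes on each of the 9 arrays, with a panel for each gene. Points are arrays labelled by replicate number, and bars are the group mean and SD (n = 3). The axes span the same number of log2 units but start at different levels. Lbp groups do not overlap between PBS and either cytokine, while the Saa3, Hp and Lcn2 groups overlap.

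Serpina3n differed from PBS by more than Lbp in the models of all arrays, with a wider spread. Its level was 9.52, 9.80 and 10.98 with PBS, 11.94, 10.84 and 12.19 with IL6, and 11.92, 11.69 and 12.28 with IL11. IL6 replicate 2 lay below PBS replicate 3, so these groups overlapped, while all IL11 tumours lay above all PBS tumours. The difference was 1.56 ± 0.43 (SE, n = 3) on the log2 scale with IL6, or 2.94-fold (1.50 to 5.78), and 1.86 ± 0.43 with IL11, or 3.64-fold (1.85 to 7.15). Neither passed (limma adjusted p = 0.202 and 0.209). Without both PBS arrays that stood apart, the differences were 2.13 (adjusted p = 0.250) and 2.44 (adjusted p = 0.211). With IL11 the order of Serpina3n and Lbp turned without PBS replicate 1 (1.57 against 1.85) and without PBS replicate 2 (1.71 against 1.85).

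Lrg1 gave a bright signal on every array. Its raw signal was 9012.5, 6019.6 and 7291.8 with PBS, 23728.9, 15890.0 and 14313.8 with IL6, and 15367.8, 17015.7 and 17769.1 with IL11. After normalization the levels were 13.73, 12.93 and 13.01 with PBS, 14.16, 13.46 and 14.04 with IL6, and 13.64, 13.98 and 14.04 with IL11. The groups did not overlap in raw signal but did after normalization. PBS replicate 1, the array with the lowest mean signal, then lay above IL6 replicate 2 and IL11 replicate 1. Lrg1 lay 1.59-fold above PBS with IL6 (1.05 to 2.41, limma adjusted p = 0.290) and 1.59-fold with IL11 (1.05 to 2.41, adjusted p = 0.329). Without both PBS arrays that stood apart the log2 differences shrank from 0.67 to 0.16 with either cytokine (adjusted p = 0.894 and 0.904).

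The complement gene Cfb was low on PBS replicates 2 and 3. Its level was 7.88, 6.32 and 6.70 with PBS, 7.70, 7.66 and 7.16 with IL6, and 8.06, 7.98 and 7.81 with IL11. PBS replicate 1 lay within the range of the IL11 tumours. The log2 difference from PBS was 0.54 ± 0.36 (SE, n = 3) with IL6 (limma adjusted p = 0.469) and 0.98 ± 0.36 with IL11 (adjusted p = 0.304). Without PBS replicate 1 it was 1.00 (adjusted p = 0.0477) and 1.44 (adjusted p = 0.0271), and without both PBS arrays that stood apart it was -0.37 (adjusted p = 0.713) and 0.06 (adjusted p = 0.959). The difference of Cfb therefore took either sign with IL6, depending on which PBS tumours were used.

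C3, the protein at which the activation routes of complement meet, was highest in a PBS tumour. Its level was 8.11, 11.39 and 8.72 with PBS, 9.30, 9.13 and 7.99 with IL6, and 7.87, 7.98 and 9.21 with IL11. The log2 difference was -0.60 ± 0.77 (SE, n = 3) with IL6 (limma adjusted p = 0.720) and -1.05 ± 0.77 with IL11 (adjusted p = 0.527). Without PBS replicate 2, which carried the highest C3 level, the differences were 0.39 (adjusted p = 0.786) and -0.06 (adjusted p = 0.976). Without PBS replicate 3 as well they were 0.70 (adjusted p = 0.760) and 0.25 (adjusted p = 0.932). PBS replicate 2 also had the highest mean level of T and B cell and of pancreatic acinar markers. Of the 9 acinar markers, 6 were detected on PBS replicate 2 and 1 to 3 on each other array. Their summed raw signal, which is not normalized, was 6460.0 on PBS replicate 2. That sum was 3428.2 and 7162.3 on PBS replicates 1 and 3, and 7573.5 to 11104.9 on the cytokine arrays. Cela1, at a mean log2 level of 12.7 against 5.72 for the next marker, Amy2b, weighs most in it. Summed raw signal of the 7 T and B cell markers on the array was 609.8 to 1059.3 with PBS, 625.6 to 931.8 with IL6 and 713.9 to 725.7 with IL11, with Cd4, Cd8a and Ms4a1 detected on no array. Their part in the C3 level was not tested.

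Saa3, Hp and Lcn2 differed more between tumours of a group than between groups. Saa3 was at 10.78, 9.65 and 8.67 with PBS, 10.13, 6.88 and 10.73 with IL6, and 10.36, 8.73 and 10.40 with IL11. In both cytokine groups replicate 2 was the lowest, and the highest level of all was in a PBS tumour. The log2 difference from PBS was -0.45 ± 0.96 (SE, n = 3) with IL6 and 0.13 ± 0.96 with IL11 (limma adjusted p = 0.839 and 0.960). The confidence interval with IL11 ran from a 0.248-fold to a 4.85-fold level, so a change of Saa3 in either direction would be compatible with these arrays.

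Hp was measured by 3 probes. The probe with the highest level read 8.19, 7.53 and 6.21 with PBS, 8.11, 5.82 and 8.65 with IL6, and 7.85, 6.75 and 8.38 with IL11. IL6 replicate 2 was again the lowest array. The second probe had its lowest level there too, at 5.35, and the third probe at 5.28 on IL11 replicate 2, next to 5.34 on IL6 replicate 2. The log2 difference from PBS was 0.22 ± 0.76, 0.37 ± 0.51 and 0.23 ± 0.63 (SE, n = 3) for the 3 probes with IL6, and 0.35 ± 0.76, 0.26 ± 0.51 and 0.18 ± 0.63 with IL11. None of these 6 differences passed in limma (adjusted p = 0.754 to 0.914, the first probe in the model of genes and the others in a model of every kept probe). The groups overlapped for every Hp probe.

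Lcn2 shared its lowest array, IL6 replicate 2, with Saa3 and Hp. Its level was 7.42, 5.82 and 6.02 with PBS, 7.19, 5.19 and 8.40 with IL6, and 6.87, 6.58 and 9.03 with IL11. The next lowest arrays were PBS replicates 2 and 3, and the highest was IL11 replicate 3. It lay 1.42-fold (0.370 to 5.48) above PBS with IL6 and 2.11-fold (0.547 to 8.10) with IL11, and neither passed (limma adjusted p = 0.794 and 0.562). Lcn2 is also a granule gene of neutrophils, and neutrophil markers averaged 7.61 to 8.84 with PBS, 8.30 to 8.88 with IL6 and 7.66 to 9.09 with IL11, over 6 of 11 genes tested. IL11 replicate 3 was highest in Lcn2 and in that mean, and IL6 replicate 2, lowest in Lcn2, stood at 8.30. Summed raw signal of the 10 neutrophil markers on the array was 9823.9 to 19814.0, 19118.5 to 23328.7 and 14364.1 to 24689.8 in the groups. Ltf, at a mean log2 level of 13.9 against 9.11 for the next marker, Mmp9, weighs most in that sum. Ltf is also in the list of secreted epithelial defence genes used below. Ngp, Mmp8 and Cxcr2 were detected on no array and Camp on 1. The part of neutrophils in the Lcn2 levels was not tested.

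**Figure D3:**
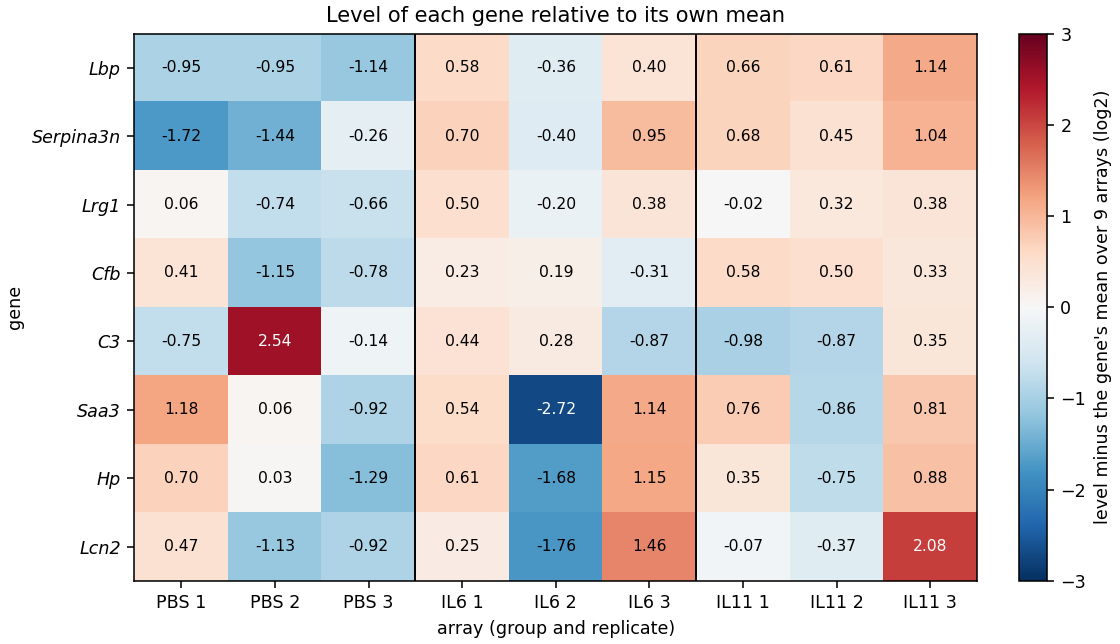
Level of each tested acute phase gene (rows) on each array (columns) minus the mean of that gene over the 9 arrays, in log2 units, from blue (below) to red (above). Lbp is below its mean on the 3 PBS arrays, C3 is 2.54 above its mean on PBS replicate 2, and Saa3, Hp and Lcn2 are at -2.72, -1.68 and -1.76 relative to their means on IL6 replicate 2.

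Without both PBS arrays that stood apart, the log2 differences of Saa3, Hp and Lcn2 were -1.53, -0.67 and -0.49 with IL6 and -0.95, -0.54 and 0.08 with IL11, none past the threshold in limma (adjusted p = 0.756 to 0.990).

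The spread within groups set these genes apart from each other. The within-group SD was 0.34 for Lbp and 0.36 for Lrg1, against a median of 0.29 over all genes. It was 0.51 for Cfb and 0.63 for Serpina3n. For C3, Hp, Lcn2 and Saa3 it was 1.17, 1.15, 1.31 and 1.45, and more than 98% of all genes had a smaller SD than any of these, the lowest share being 98.2% for Hp. IL6 replicate 2 was the lowest IL6 array for 6 of the 8 members, the exceptions being Cfb and C3. Gastric epithelial markers on it averaged 11.75, against 12.41 and 12.44 on the other IL6 arrays, and their part in these levels was not tested.

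Saa1 and Saa2 encode closely related serum amyloid A proteins of the acute phase in liver. The Saa1 probes gave raw signals of 81.5 to 147.4 over the 9 arrays, and 1 of them was detected on PBS replicate 3 and IL6 replicate 2 while the other was detected on no array. The Saa2 probe gave 85.9 to 145.7 and was detected on IL6 replicate 2 alone. No change of either gene was detectable at these signals, which lie near the background of the arrays. Of 12 hepatocyte markers, 6 were detected on no array, namely Alb, Ahsg, Serpinc1, Fgb, Cps1 and Apoc3. Summed raw signal of the 12 was 1747.9 to 3322.9 with PBS, 2084.6 to 4297.3 with IL6 and 2757.1 to 3106.5 with IL11, with Ttr and Ambp among the detected genes.

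Across the 8 tested members, the median log2 difference from PBS was 0.53 with IL6 and 0.82 with IL11, where the medians over all genes were -0.03 and -0.02. These comparisons share the PBS arrays. Without both PBS arrays that stood apart the medians were -0.11 and 0.12, and 4 members lay above PBS with IL6 and 6 with IL11. With all arrays and IL6, 6 members lay above PBS and 3 had an unadjusted p under 0.05 (Lbp, Serpina3n and Lrg1), where 15.2% of all genes did. With IL11, 7 lay above PBS and 4 had such a p (these 3 and Cfb), where 14.1% of all genes did. Groups did not overlap for 1 member with IL6 (Lbp), where 17.4% of all genes did not overlap and 8.32% lay higher without overlap. They did not overlap for 2 with IL11 (Lbp and Serpina3n), where these shares of all genes were 19.6% and 8.6%. With members at 12.5% and 25%, the counts are too small to read beyond the background.

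**Figure D4:**
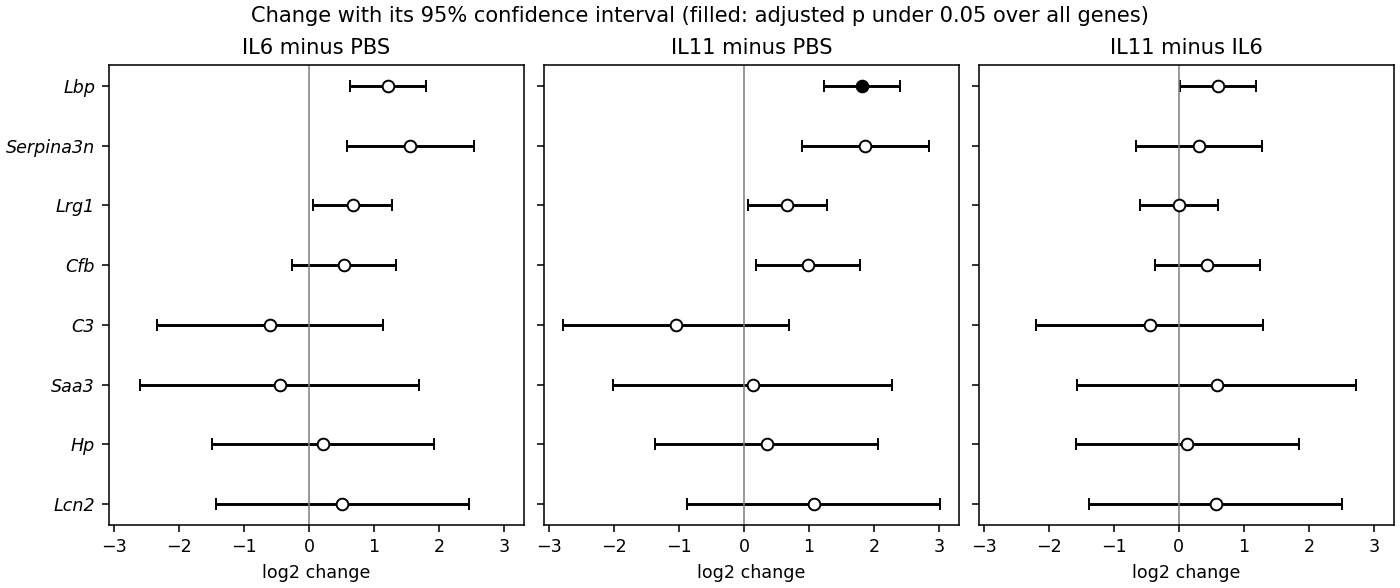
Log2 change of the 8 tested acute phase genes in the 3 comparisons, as the estimate (circle) with its 95% confidence interval. A filled circle marks an adjusted p under 0.05 over all 13001 genes, reached by Lbp with IL11 at 1.81. The intervals of C3, Saa3, Hp and Lcn2 span 0 in every comparison.

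The calls with IL6 changed with the scaling of the arrays. With median scaling in place of quantile normalization, 3 of 8 members passed with IL6, Lbp at 1.75 (limma adjusted p = 0.00827), Serpina3n at 2.05 (adjusted p = 0.0248) and Lrg1 at 0.94 (adjusted p = 0.0429). That scaling also moved the median of all genes by 0.39 with IL6 and 0.28 with IL11. Of 13001 genes it called 1400 up and 5 down with IL6, against 31 and 5 with quantile normalization. With IL11 it called 66 up and 1 down, against 14 and 3. The log2 medians of all genes were then 0.36 and 0.26, to be set beside the members' values.

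IL11 and IL6 tumours were also set against each other, to ask how far the cytokines differ for these genes. Lbp was 1.51-fold higher with IL11 (1.01 to 2.26), a log2 difference of 0.60 ± 0.26 (SE, n = 3), and did not pass (limma adjusted p = 1.00). In limma 0 of 8 members passed, as did 0% of all genes, and 1 member, Lbp, had an unadjusted p under 0.05, where 2.38% of all genes did. Groups did not overlap for Lbp and Cfb, both higher with IL11, where 10.4% of all genes did not overlap and 4.7% lay higher without overlap. Cfb differed by 0.44 (interval -0.36 to 1.24), Serpina3n by 0.31 (-0.67 to 1.28) and Lrg1 by 0.00 (-0.60 to 0.60). The interval was -2.19 to 1.29 for C3, -1.56 to 2.73 for Saa3, -1.58 to 1.84 for Hp and -1.38 to 2.51 for Lcn2. These widths leave room for differences of more than 1 log2 unit in either direction for those 4 genes. Without IL6 replicate 2 the Lbp difference was 0.31, and those of Saa3, Hp and Lcn2 turned to -0.60, -0.72 and -0.31.

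The genes whose levels lay nearest to those of Lbp over the 9 arrays, by root mean square difference after centring each gene, were Gm379 (0.317), Trim10 (0.328), Ugt2b35 (0.329), LOC382262 (0.353) and C330006P03RIK (0.355). The median over 13000 other genes was 0.863. Of these 5 genes C330006P03RIK passed with IL11 (log2 change 1.09, limma adjusted p = 0.0414) and the others did not, with adjusted p of 0.150 to 0.211. That call held in 1 of 9 models that left out 1 array, the one without PBS replicate 1. The 5 genes were chosen by their levels on these same arrays, where Lbp differed between IL11 and PBS. Their differences from PBS are thus partly set by that choice. The share of all genes that passed with IL11, 0.131%, is therefore no fair measure for them. Among the members, Serpina3n (0.466) was in place 33 and Lrg1 (0.523) in place 117, while Saa3 (1.25) was in place 12517 and C3 (1.52) in place 12845.

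Of 27 other acute phase genes in the list, 11 could be tested, without Crp, Orm1, Orm2, Fga, Fgb, Hpx and Saa4, and 0 passed in limma with IL6, IL11 or between the cytokines. Their median difference from PBS was 0.22 with IL6 and 0.12 with IL11. Hamp, which encodes the iron regulator hepcidin, was detected on no PBS array and on all 6 cytokine arrays. Its level was 4.45, 4.41 and 4.50 with PBS, 6.32, 8.84 and 5.71 with IL6, and 6.11, 6.82 and 5.52 with IL11. It lay 5.65-fold (1.95 to 16.4) above PBS with IL6 and 3.23-fold (1.11 to 9.37) with IL11. Neither passed (limma adjusted p = 0.197 and 0.331). Because the PBS levels were not detected, a floored fold was also taken. It raised each PBS level to the lowest detected level of that array, and was 3.44-fold with IL6 and 1.97-fold with IL11. The floored fold with IL6 was 1.79-fold without IL6 replicate 2 and 5.31-fold without IL6 replicate 3. With IL11 it was 1.56-fold without IL11 replicate 2 and 2.45-fold without IL11 replicate 3. IL6 replicate 2, low in Saa3, Hp and Lcn2, was the highest array for Hamp. The fibrinogen gene Fgg, also detected on no PBS array, lay 1.59-fold (1.18 to 2.14) above PBS with IL11 (limma adjusted p = 0.238). Its floored fold was 1.20-fold. Serpina3m, a relative of Serpina3n, lay 1.78-fold (1.12 to 2.83) above PBS with IL6 (limma adjusted p = 0.263). Its floored fold was 1.38-fold, and 1.18-fold without IL6 replicate 3. Between the cytokines Serpina3g differed by -0.74 (adjusted p = 1.00), and Fgg, named for that comparison too, was detected on 1 of 3 IL6 arrays. Serpina3 genes are close copies of each other, and whether a probe also binds RNA of the others was not tested.

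In the list of lipopolysaccharide sensing, which holds receptors and downstream signalling genes, 0 of 13 tested genes passed in limma with either cytokine. With each, 11 of the 13 lay above PBS. Tlr4, the receptor gene, was at 8.78, 8.53 and 8.54 with PBS, 9.51, 9.60 and 9.67 with IL6, and 9.28, 9.19 and 9.50 with IL11. These PBS and cytokine groups did not overlap, but 8.32% of all genes with IL6 and 8.6% with IL11 also lay higher without overlap. Tlr4 lay 0.98 ± 0.16 (SE, n = 3) above PBS with IL6 (limma adjusted p = 0.0526) and 0.71 ± 0.16 with IL11 (adjusted p = 0.197). The adaptor gene Myd88 lay 0.73 above PBS with IL6 (adjusted p = 0.131), and Cd14, whose product receives lipopolysaccharide from LBP, lay 0.11 with IL6 and 0.41 with IL11 from PBS (adjusted p = 0.905 and 0.621). Over 20 alternatives Tlr4 passed with IL6 in 7 and with IL11 in 1. Myd88 passed with IL6 in 4 of 20, so the count of 0 depends on the processing. Ly86, which encodes MD-1, lay -1.14 from PBS with IL11 (adjusted p = 0.267), and -0.59 without both PBS arrays that stood apart. Beside it, macrophage markers averaged 7.32 to 8.18 with PBS, 6.68 to 7.22 with IL6 and 6.22 to 7.06 with IL11 over 8 of 11 genes tested. Summed raw signal of those 11 was 1512.5 to 3408.9 with PBS, 1692.8 to 3264.3 with IL6 and 1532.7 to 2306.2 with IL11, Fcgr1 and Itgam were detected on no array, and their part was not tested. Between the cytokines, Myd88 differed by -0.34 and Traf6, a ubiquitin ligase downstream of it, by -0.41 (adjusted p = 1.00 for each).

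Complement genes other than C3 and Cfb gave 0 of 15 past the threshold in limma in all 3 comparisons. Their median difference from PBS was -0.53 with IL6 and -0.21 with IL11. C1qc and C1qa, which encode chains of C1q and are expressed by macrophages, lay -1.64 and -1.37 from PBS with IL6 (adjusted p = 0.197 and 0.207), and C1qc lay -1.77 from it with IL11 (adjusted p = 0.223). Cfp, the gene of properdin, lay -1.19 from PBS with IL11 (adjusted p = 0.268). Without both PBS arrays that stood apart, C1qc and C1qa lay -1.06 and -0.93 from PBS with IL6. C1qc and Cfp then lay -1.18 and -0.33 from it with IL11. C1qa and C1qc are also among the 8 tested macrophage markers, which averaged 7.32 to 8.18 with PBS and 6.68 to 7.22 with IL6, with a median log2 difference of -1.09. The mean of 7.32 was that of PBS replicate 1, which did not stand apart.

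Among 14 tested genes of secreted epithelial defence, 1 rose with IL11, the antimicrobial lectin gene Reg3a (log2 change 2.74 ± 0.40, SE, n = 3, limma adjusted p = 0.0414), and 0 passed with IL6. The share of all genes that rose with IL11 was 0.108%. Reg3a was detected on 1 of 3 PBS arrays. Its call held in 2 of 9 models that left out 1 array, without PBS replicate 1 and without IL6 replicate 2. Over 19 alternatives Reg3a passed with IL11 in 5. Its log2 change was 1.43 without background correction (limma adjusted p = 0.0917) and 1.89 with an offset of 50 (adjusted p = 0.0578). Its relative Reg3g was at 12.41, 7.88 and 10.86 with PBS, 13.13, 12.48 and 12.96 with IL6, and 13.01, 13.18 and 13.50 with IL11. Every cytokine tumour lay above every PBS tumour for Reg3g, as for 8.32% of all genes with IL6 and 8.6% with IL11. Its PBS tumours spanned more than 4 log2 units and neither difference passed (adjusted p = 0.264 and 0.268).

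In the signalling list, 4 of 25 tested genes rose with IL6 (Pim3, Socs3, Bcl3 and Osmr), 0 fell, and the median difference from PBS was 0.68. Over all genes 0.238% rose with IL6. With 1 array left out, these calls held in 7, 6, 5 and 1 of 9 models in that order, and all were lost without IL6 replicate 1 or IL6 replicate 3. Socs3 and Bcl3 were also lost without IL6 replicate 2 and Bcl3 without PBS replicate 2, while Osmr held only without PBS replicate 1. With IL11, 1 of 25 rose (Pim3), where 0.108% of all genes did, and the median was 0.50. This call held in 2 of 9 such models, without PBS replicate 1 and without IL6 replicate 2. Socs3, Osmr and Bcl3 lay 1.85, 1.77 and 1.52 above PBS with IL11, just over the threshold (limma adjusted p = 0.0545, 0.0545 and 0.0518). Socs3 passed with IL11 in 7 of 20 alternatives. Between the cytokines these genes differed by -0.47, -0.09 and -0.34 and did not pass, so a response to IL6 alone is not shown. Genes for transcription factors of acute phase promoters did not pass in limma. Cebpb lay 1.12 ± 0.20 (SE, n = 3) above PBS with IL6 (adjusted p = 0.0822) and 0.81 ± 0.20 with IL11 (adjusted p = 0.222). Cebpd lay 1.43 and 1.48 above PBS (adjusted p = 0.408 and 0.418), with PBS levels of 8.39, 4.67 and 8.27, the middle one not detected. Without that array, PBS replicate 2, the Cebpd differences were 0.21 and 0.26. Stat3 lay 0.65 and 0.70 above PBS (adjusted p = 0.264 and 0.281), and 0.27 and 0.31 above it without both PBS arrays that stood apart. In the NF-kB and IL1 list, 1 of 15 tested genes, the adhesion molecule gene Icam1, rose with each cytokine, by 2.27 with IL6 and 1.87 with IL11 (adjusted p = 0.0064 and 0.0317), and 0 fell. The call with IL6 was lost without IL6 replicate 1 (0.0574). The call with IL11 held in 4 of 9 models, without any 1 PBS replicate or without IL6 replicate 2, and was lost without IL6 replicate 1 or 3 or any 1 IL11 replicate. The median of that list was 0.26 with IL6 and 0.06 with IL11. Between the cytokines 0 genes of any list passed in limma, and the smallest p in the lists of signalling, NF-kB, complement and epithelial defence belonged to Irf1 (-0.44), Junb (-0.49), Tnf (-0.68), Icam1 (-0.40), C8b (-0.24), Cfp (-0.49), Lyz1 (-0.43) and S100a9 (-0.94), all with an adjusted p of 1.00.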

How the data were processed

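Total RNA of 9 tumours was measured on Illumina bead arrays. Per the file headers, the deposited intensity values are probe signals exported by BeadStudio 3.4.0 without normalization. The deposited detection values are fractions, headed as p-values per the file headers, yet high values went with bright probes (lowest Spearman rho of an array 0.985), so they were read as 1 minus the detection p. The authors also deposited a table on a scale taken to be log2, for which the submitters' processing notes name lumi and Partek. The order of its steps is not stated, and its probe identifiers could not be matched to those of the signals, so it gave counts of probes only.

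From the signals, limma 3.58.1 in R 4.3.3 corrected the background (nec, offset 16, negative controls inferred from the detection p), applied quantile normalization and took log2. Probes with a detection p under 0.05 on at least 3 arrays were kept (18925), and the kept probe with the highest mean stood for its gene (13001 genes). Gene names came from a RefSeq table of GRCm38.p6, which matched 13158 kept probes by current and 3555 by older symbol, while 2212 kept the name in the file. All 9 arrays entered 1 linear model with a mean per group (lmFit, eBayes, two-sided), with Benjamini-Hochberg adjustment over all genes and a threshold of 0.05. With 3 arrays a group, their number limits the precision. The script was tested on simulated data. Alternatives covered background, scaling, filter, probe choice, samples, block, moderation, weights and each array left out. Genes named beside the members were those past the threshold in a list, up to 4, or else the 2 with the smallest p, plus Socs3, Stat3, Cebpb, Cebpd, Cd14 and Tlr4 and the 5 nearest to Lbp. Members and lists were chosen with earlier results of these data known. Each array came from its own mouse, and p-values measure the spread between mice.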

Additional observations from a re-analysis of the deposited data

How the results depend on the processing

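The number of acute phase genes past the threshold in limma was 0 with IL6, 1 with IL11 and 0 between the cytokines. With IL6 it was 3 under median scaling and 0 to 1 when 1 array was left out, the 1 being Cfb without PBS replicate 1. With IL11 it was 0 without a detection filter, with only the 2 groups compared, with array weights or without both PBS arrays that stood apart (an alternative chosen after seeing the data), and 0 to 2 when 1 array was left out. Over 20 alternatives Lbp passed with IL11 in 8 and kept its sign in all (log2 change 1.52 to 2.18, adjusted p 0.00478 to 0.260). With the replicate number as a block, 0 members and 0 genes passed with IL11, and 20 genes with IL6. The deviations of same-numbered arrays correlated at -0.133 to 0.338 and 2 of 9 arrays correlated best with their own number, so the numbers were not taken to pair the mice.

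Over all genes the count with IL6 was 36, and 1405 with median scaling, 23 without a filter, 2 with only the groups compared, 15 with array weights, 12 without both PBS arrays, and 1 to 524 with 1 array left out (524 without PBS replicate 1). The count with IL11 was 17, and 67 with median scaling, 0 with only the groups compared, 28 with trend and robust moderation, 7 with array weights, 2 without both PBS arrays, 11 with the authors' values over every probe, and 0 to 353 with 1 array left out (353 without PBS replicate 1). Between the cytokines the count was 0, and 1 with median scaling, with only these groups or without both PBS arrays, and 2 with array weights.

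The members whose sign changed were among those that did not pass with quantile normalization of all arrays. Under median scaling Saa3 turned to 0.070 with IL6, and between the cytokines Hp turned to -0.010 and Lrg1 to 0.049. Without both PBS arrays, C3 (0.70), Cfb (-0.37), Hp (-0.67) and Lcn2 (-0.49) turned with IL6, and C3 (0.25), Hp (-0.54) and Saa3 (-0.95) with IL11. With 1 array left out, the ranges that crossed 0 were, with IL6, -1.25 to 0.39 for C3, -0.35 to 1.07 for Hp, -0.23 to 1.38 for Lcn2 and -1.19 to 0.73 for Saa3, and with IL11, -0.20 to 0.80 for Hp and -0.38 to 0.68 for Saa3. Between the cytokines they were -0.72 to 0.69 for Hp, -0.31 to 1.30 for Lcn2, -0.21 to 0.14 for Lrg1, -0.60 to 1.33 for Saa3 and -0.10 to 0.57 for Serpina3n. For Cd14 they were -0.37 to 0.46 with IL6 and -0.074 to 0.75 with IL11, and without both PBS arrays its difference with IL6 was -0.17. The cause was not tested. Members could not be looked up in the authors' values, so that alternative was not run for them. Signals of Saa1 and Saa2 near background limit any statement on them.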
